A study of Homo sapiens with 45 samples.

Results

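The SOX genes encode transcription factors that bind DNA through a shared HMG box and direct the choice of lineage in the early embryo. Contacts of 10 of them, SOX1, SOX2, SOX14, SOX21, SOX11, SOX8, SOX9, SOX7, SOX17 and SOX18, were read from poised-enhancer capture Hi-C. A contact was taken as a pair of fragments on the same chromosome (in cis) of which 1 lay within 1000 bp of either annotated end of a gene. By this rule 95 pairs were found, of 152688 cis pairs and 434524 pairs listed in all, each counted once, and 7 of the 10 genes had a pair.

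The cells were HNES1, an established human embryonic stem cell line, kept naive in PXGL medium on irradiated mouse feeder cells and then moved to N2B27 with XAV939, a tankyrase inhibitor, in every group. One group received UNC6852 at 2.5 µM, a degrader of EED, a second received UNC1999 at 1 µM, which blocks the catalytic subunits EZH1 and EZH2, and controls received an equal volume of the solvent DMSO. Each agent was given from 24 h before day 0 and renewed daily, and cells were taken on day 5 of the transition to the primed state. Each group held 15 libraries from 3 biological replicates, and the values are 1 pooled interaction score per pair and group. So there is no spread between replicates, no test was possible, and every statement compares pooled profiles. EED and the histone mark itself were not measured here, and since the doses differ, no order of strength is read between the compounds.

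Polycomb repressive complex 2, which contains EED and EZH1 or EZH2, places the repressive mark H3K27me3 on chromatin, and in pluripotent cells it occupies many developmental genes that are silent but ready for use. Poised enhancers are distal elements of such genes, which can lie close to their promoters in the nucleus before the genes are switched on. SOX genes are typical of this class: SOX1, SOX14 and SOX21 serve neural lineages, SOX8, SOX9 and SOX11 serve crest, cartilage and neurons among others, and SOX7, SOX17 and SOX18 serve endoderm and blood vessels. SOX2 differs from them in that it is itself a core factor of pluripotency.

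The score is a CHiCAGO score, which grows with the excess of reads joining a captured fragment and another over a background model. A score of at least 5 made a call in that profile, and every listed pair reached 5 in at least 1 profile. Captured fragments are short products of DpnII, which cuts at GATC, with a median of 625 bp, whereas other ends that were not captured had a median of 5265 bp.

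Promoters that fell whole inside a listed fragment show what such a fragment can hold. The promoter of DZIP1L, a gene of cilium biology, lies at chr3:138115559-138115858 on the minus strand, inside a partner fragment of SOX14. The promoter of the noncoding gene LINC00391 lies at chr13:94708437-94708736 on the minus strand, inside the listed fragment at the lower end of SOX21. The promoter of SOX21 itself lies at chr13:94712496-94712795 on the minus strand, beyond that fragment, so the SOX21 pairs touch the end of the gene and not its start. The promoter of LINC01248 lies at chr2:5691069-5691368 on the minus strand, inside the listed fragment at SOX11. The sequences are from RefSeq on GRCh38.p14, run 5′ to 3′ from 250 bases before to 50 bases after the start, and have the DpnII site GATC in capitals.
DZIP1L: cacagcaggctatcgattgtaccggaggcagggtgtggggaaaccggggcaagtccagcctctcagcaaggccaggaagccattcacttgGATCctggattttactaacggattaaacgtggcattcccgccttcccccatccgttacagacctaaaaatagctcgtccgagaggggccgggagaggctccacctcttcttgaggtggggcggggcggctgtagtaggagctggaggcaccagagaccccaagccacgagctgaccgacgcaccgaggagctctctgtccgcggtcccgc
LINC00391: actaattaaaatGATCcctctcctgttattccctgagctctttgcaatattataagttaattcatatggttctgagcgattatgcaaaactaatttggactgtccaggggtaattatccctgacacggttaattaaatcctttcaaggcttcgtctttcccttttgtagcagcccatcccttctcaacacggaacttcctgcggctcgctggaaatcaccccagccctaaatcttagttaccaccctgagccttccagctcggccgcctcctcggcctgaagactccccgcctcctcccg
SOX21: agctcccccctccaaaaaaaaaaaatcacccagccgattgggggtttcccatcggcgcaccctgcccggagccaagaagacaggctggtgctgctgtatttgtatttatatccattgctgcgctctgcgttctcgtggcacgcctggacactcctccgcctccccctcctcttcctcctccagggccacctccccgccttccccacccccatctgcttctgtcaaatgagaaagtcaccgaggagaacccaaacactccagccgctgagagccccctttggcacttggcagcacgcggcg
LINC01248: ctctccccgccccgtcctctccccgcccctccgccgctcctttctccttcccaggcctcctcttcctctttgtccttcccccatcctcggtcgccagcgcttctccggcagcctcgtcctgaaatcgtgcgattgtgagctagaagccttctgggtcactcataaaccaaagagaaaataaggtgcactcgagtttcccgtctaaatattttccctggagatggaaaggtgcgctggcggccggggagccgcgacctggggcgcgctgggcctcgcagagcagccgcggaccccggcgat
The first 2 hold 1 GATC each yet lie inside a single listed fragment, so a listed other end spans several DpnII products and places a contact only to a few kilobases. GATC, which reads the same on both strands, occurs in 41.7% of the 35116 promoters of that table. These 4 promoters hold 19, 11, 15 and 26 CG pairs in the order printed, against a median of 14 over all promoters. The table gave promoters for SOX1, SOX2 and SOX21 among the 10 genes.

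Over the 10 genes, 45 pairs were called in UNC6852, 49 in UNC1999 and 36 in DMSO. The shares were 47.4% in UNC6852 (exact 95% interval 37.0 to 57.9), 51.6% in UNC1999 (41.1 to 62.0) and 37.9% in DMSO (28.1 to 48.4), where all cis pairs gave 46.1% in UNC6852, 42.3% in UNC1999 and 42.4% in DMSO. The interval of each SOX share therefore holds the value of all cis pairs in UNC6852, UNC1999 and DMSO alike. These intervals cover counting error only and treat neighbouring pairs as separate. Calls in a single profile made up most of the list, with 70 pairs called in 1 profile (77.5% of all cis pairs), 15 in 2 profiles and 10 in all 3 (8.33% of all cis pairs). The 10 pairs called throughout all belonged to SOX17, which had 52 of the 95 pairs.

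**Figure D1:**
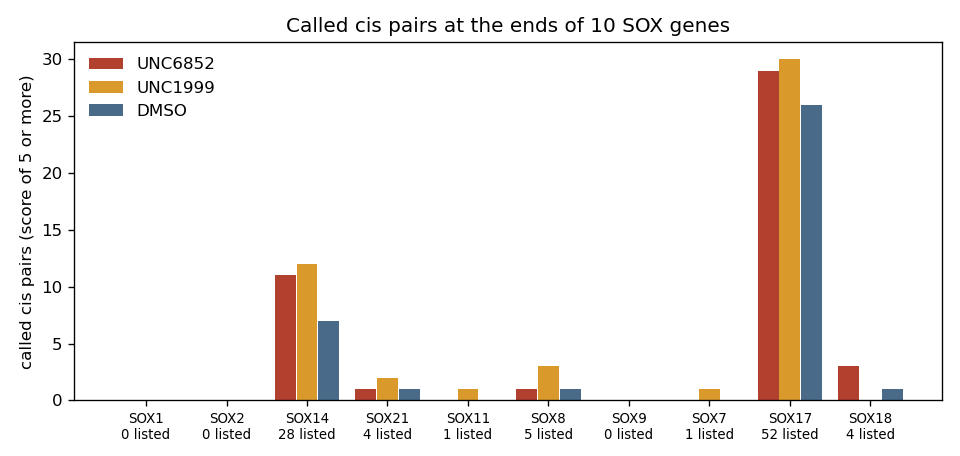
Number of called cis pairs (score of 5 or more) at the ends of each SOX gene in the pooled UNC6852, UNC1999 and DMSO profiles, with the number of listed pairs under each name. SOX17 and SOX14 hold 80 of the 95 listed pairs, and SOX1, SOX2 and SOX9 hold none.

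SOX1 and SOX2, of group B1, keep neural progenitors undifferentiated, and neither had a cis pair at its ends. SOX1 (chr13:112067149-112071706) had 2 captured fragments at its ends, and these were listed in 7 pairs with other chromosomes. Within 5000 bp of the ends SOX1 had 6 cis pairs, of which 1 was called in UNC6852, 3 in UNC1999 and 2 in DMSO, and none in more than 1 profile. Of SOX2 (chr3:181711925-181714436) the nearest captured fragment lay 14510 bp away. Within 5000 bp SOX2 had 4 cis pairs, all from 1 fragment below the gene that was seen from the other side, with 1 call in UNC6852, 3 in UNC1999 and none in DMSO. A captured fragment 234 kb above SOX2 scored 4.76 in UNC6852, 5.85 in UNC1999 and 3.10 in DMSO with it. Its neighbour at 234 kb gave 5.22 in UNC6852, 4.89 in UNC1999 and 3.79 in DMSO. In both pairs the treated values thus lie near the threshold, and DMSO is lowest and below it. The next, 975 kb above, gave 1.35 in UNC6852, 8.15 in UNC1999 and 3.79 in DMSO.

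SOX14 and SOX21, of group B2, act against the B1 factors in neurons. SOX14 (chr3:137764315-137766334) had 4 captured fragments within 1000 bp of its ends and 28 pairs, a number reached by 304 of the 9948 genes with a pair. The captured fragments starting at 137766512 and 137766672 lie wholly above the gene. Of all 28 SOX14 pairs, 11 were called in UNC6852, 12 in UNC1999 and 7 in DMSO. No SOX14 pair was called in all 3 profiles, and 26 of the 28 were called in 1 profile. The mean asinh score, a log-like scale that admits 0, was 1.47 in UNC6852, 1.49 in UNC1999 and 1.09 in DMSO. Differences from DMSO were 0.37 for UNC6852 and 0.40 for UNC1999, but 0.14 and 0.15 on quantile-normalized scores.

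Partners of SOX14 lay in both directions. When partners within 100 kb of each other were joined, a rule set after the values were seen, 8 pairs met a stretch of 23.8 kb at chr3:137936898-137960727, in the gap between SOX14 and CLDN18, a gene of epithelial junctions. These 8 pairs had a score above 0 in every profile and reached only 3 partner fragments, which different SOX14 fragments shared. The first fragment of SOX14 scored 6.79 in UNC6852, 3.66 in UNC1999 and 5.02 in DMSO with the partner 179 kb above. The fourth scored 3.92 in UNC6852, 7.49 in UNC1999 and 2.61 in DMSO with that same partner. Separate fragments at the gene thus gave the highest score in different profiles for a single partner. In all, 3 of the 8 were called in UNC6852, 4 in UNC1999 and 3 in DMSO.

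On the lower side, 9 pairs met chr3:137022745-137188192, a stretch of 165 kb that holds no protein-coding gene, beyond which lies IL20RB, a cytokine receptor gene. Calls there numbered 3 in UNC6852, 5 in UNC1999 and 1 in DMSO, with mean asinh scores of 1.20, 1.73 and 0.65 in that order. Each of the 9 was called in 1 profile, as were 77.5% of all cis pairs, and had a partner fragment of its own. The highest of them, 730 kb below SOX14, scored 3.23 in UNC6852, 12.0 in UNC1999 and 3.13 in DMSO. The DMSO call, 638 kb below, scored 0 in UNC6852, 0.67 in UNC1999 and 7.07 in DMSO. A further pair 916 kb below, inside the spans of SLC35G2 and NCK1-DT, had the highest UNC1999 difference of SOX14, with 0.04 in UNC6852, 9.25 in UNC1999 and 0 in DMSO. The highest UNC6852 difference lay 962 kb below, with 6.61 in UNC6852 and 0 in both UNC1999 and DMSO.

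The lowest UNC1999 difference of SOX14 was at a partner 12564 kb above, with 0 in UNC6852, 0 in UNC1999 and 6.42 in DMSO. Only 2 SOX14 partners touched an end of a protein-coding gene. The fragment with the DZIP1L promoter printed above, 352 kb away, scored 8.35 in UNC6852, 0 in UNC1999 and 0.71 in DMSO. The other, at LRRC15, 56592 kb away, scored 5.80 in UNC6852 and 0 in both UNC1999 and DMSO. Both were thus called in UNC6852 alone.

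**Figure D2:**
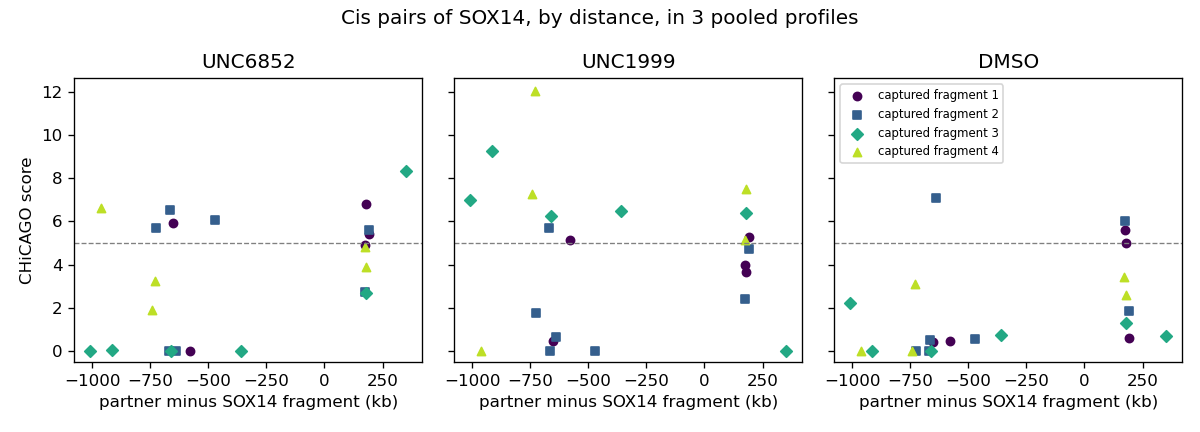
CHiCAGO score of each SOX14 pair within about 1 Mb against the distance of the partner from the SOX14 fragment in kb (negative is toward lower coordinates), with a panel for UNC6852, UNC1999 and DMSO and a marker for each of 4 adjoining captured fragments. The dashed line is the call threshold of 5. Pairs near +175 kb keep scores above 0 in each panel, while pairs below the gene are mostly at 0 in at least 1 panel.

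SOX21 (chr13:94709622-94712545) had 4 pairs, all seen from the far side, with 1 called in UNC6852, 2 in UNC1999 and 1 in DMSO. Neighbouring captured fragments 258 kb above the gene differed: the first scored 6.18 in UNC6852, 1.16 in UNC1999 and 3.32 in DMSO, the next 3.43 in UNC6852, 12.6 in UNC1999 and 4.03 in DMSO. Another, 289 kb above, scored 0 in UNC6852, 5.82 in UNC1999 and 0.22 in DMSO. The last, 971 kb above in DNAJC3, a gene of the endoplasmic reticulum stress response, scored 0 in UNC6852, 0 in UNC1999 and 8.11 in DMSO.

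Most SOX21 pairs started just outside the 1000 bp rule. Within 5000 bp of its ends SOX21 had 56 pairs, and 22 were called in UNC6852, 22 in UNC1999 and 27 in DMSO, with 3 in all 3 profiles. Of these, 49 met a stretch from 207 to 498 kb above the gene that reaches into ABCC4, a transporter gene, with 19 calls in UNC6852, 22 in UNC1999 and 23 in DMSO. The fragment starting at position 94716062 scored 9.56 in UNC6852, 8.87 in UNC1999 and 8.70 in DMSO with the partner starting at 94948972. The adjoining fragment, starting at 94715599, scored 7.54 in UNC6852, 9.15 in UNC1999 and 7.24 in DMSO with that partner. Both were called in all 3 profiles, as was a pair from 94714439 to 94956576, with 9.99 in UNC6852, 9.70 in UNC1999 and 5.90 in DMSO.

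SOX11, of group C, promotes neuronal maturation. SOX11 (chr2:5692384-5701385) had a single pair, seen from a captured fragment 227 kb above it, with 1.80 in UNC6852, 5.51 in UNC1999 and 2.26 in DMSO. The fragment at SOX11 is the one that holds the LINC01248 promoter printed above, and the nearest captured fragment lay 17385 bp from the gene.

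SOX8 and SOX9, of group E, act in neural crest and gonad, and SOX9 also in cartilage. SOX8 (chr16:981770-986979) had 5 pairs from 1 captured fragment, each called in 1 profile, which gave 1 call in UNC6852, 3 in UNC1999 and 1 in DMSO. The partner at the end of TMEM204, 546 kb above, scored 0 in UNC6852, 5.16 in UNC1999 and 1.90 in DMSO. The pairs at TPSP1 and in MAPK8IP3 also had their call in UNC1999. TPSP1 gave 0 in UNC6852, 5.98 in UNC1999 and 0 in DMSO, and MAPK8IP3 gave 0 in UNC6852, 5.45 in UNC1999 and 1.89 in DMSO. The pair at LOC102723869 scored 8.74 in UNC6852, 1.79 in UNC1999 and 0 in DMSO. That in CRAMP1 scored 0.33 in UNC6852, 0 in UNC1999 and 7.18 in DMSO. SOX8 partners lay 291 to 766 kb away, all above the gene.

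SOX9 (chr17:72121020-72126416) had no pair at its ends, and the nearest captured fragment lay 3053 bp away. That one had no cis pair, but the captured fragment 3731 bp away had 5, all with partners below SOX9 that lay in no gene span. Of these 3 were called in UNC6852, 1 in UNC1999 and 1 in DMSO. The partner 290 kb below scored 7.64 in UNC6852, 4.05 in UNC1999 and 2.57 in DMSO. The adjoining partner, 285 kb below, scored 5.92 in UNC6852, 4.00 in UNC1999 and 0.28 in DMSO. Others were highest elsewhere: the partner 275 kb below scored 1.80 in UNC6852, 1.60 in UNC1999 and 5.28 in DMSO. The one 635 kb below scored 0 in UNC6852, 5.21 in UNC1999 and 0.021 in DMSO, and the one 646 kb below 5.37 in UNC6852, 0 in UNC1999 and 4.18 in DMSO.

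SOX7, SOX17 and SOX18 form group F. SOX17 is required for definitive endoderm and marks early germ cells in human embryos. SOX17 (chr8:54457935-54460892) had 52 pairs, and only 69 genes had as many, against a median of 3 pairs per gene. Of these 29 were called in UNC6852, 30 in UNC1999 and 26 in DMSO, or 55.8% in UNC6852 (exact 95% interval 41.3 to 69.5), 57.7% in UNC1999 (43.2 to 71.3) and 50% in DMSO (35.8 to 64.2). Highest scores were 18.7 in UNC6852, 14.6 in UNC1999 and 20.2 in DMSO. The mean asinh score was 2.23 in UNC6852, 2.14 in UNC1999 and 2.01 in DMSO. The differences from DMSO were 0.22 for UNC6852 and 0.13 for UNC1999, and the second became -0.072 on quantile-normalized scores and -0.013 within 5000 bp of the ends.

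Of the 52 SOX17 pairs 51 pointed to lower coordinates and met 2 stretches. The near one, chr8:54157398-54288522, spans 131 kb between MRPL15, a mitochondrial ribosomal gene, and SOX17. It holds no protein-coding gene and took 34 pairs over 19 partner fragments. There 20 pairs were called in UNC6852, 21 in UNC1999 and 17 in DMSO. In all 3 profiles 8 of these 34 were called, where 9.42% of all cis pairs of 100 to 500 kb were. Both stretches follow the joining rule used for SOX14, which was set after the values were seen. The pairs of each came from 4 adjoining fragments at 1 gene that partly shared partners. They are therefore not separate contacts, and their counts cannot be weighed against the share of all pairs. The mean asinh score of the near stretch was 2.37 in UNC6852, 2.30 in UNC1999 and 2.17 in DMSO.

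The far stretch, chr8:53750246-53895438, spans 145 kb and covers parts of ATP6V1H, a proton pump subunit, and RGS20, a regulator of G-protein signalling. It took 17 pairs, of which 8 were called in UNC6852, 9 in UNC1999 and 9 in DMSO, with 2 in all 3 profiles, where 4.13% of all cis pairs of 0.5 to 2 Mb were. Its mean asinh score was 1.93 in UNC6852, 1.92 in UNC1999 and 1.79 in DMSO. The pair outside both stretches, 69053 kb away in FBXO32, scored 5.25 in UNC6852 and 0 in both UNC1999 and DMSO.

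**Figure D3:**
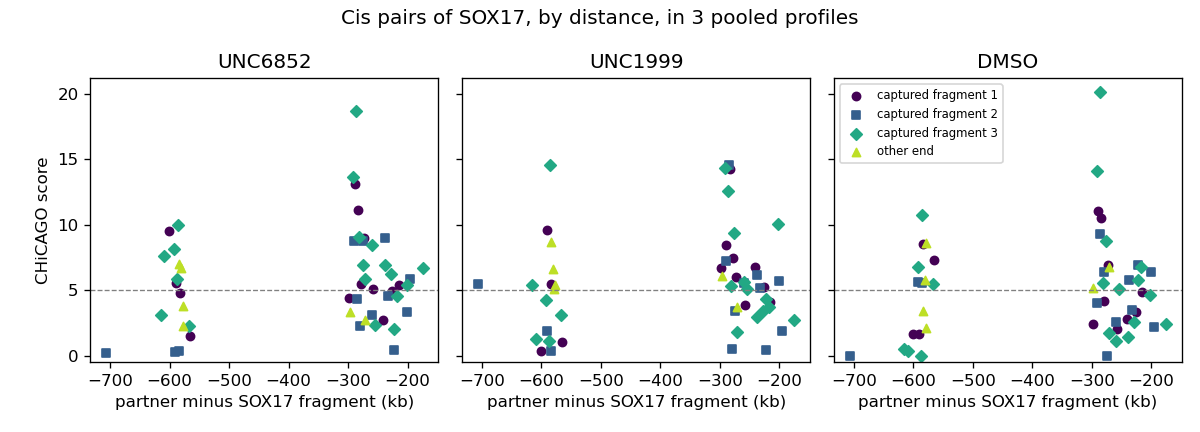
CHiCAGO score of each SOX17 pair within about 0.7 Mb against the distance of the partner from the SOX17 fragment in kb, with a panel for UNC6852, UNC1999 and DMSO and a marker for each of 3 captured fragments and for SOX17 at the other end. The dashed line is the call threshold of 5. Pairs gather in a near group between -298 and -175 kb and a far group between -707 and -565 kb in each panel.

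The strongest SOX17 pair joined the captured fragment of 302 bp at the upper end of the gene to the partner at chr8:54171712-54176756, 286 kb below. It scored 18.7 in UNC6852, 12.6 in UNC1999 and 20.2 in DMSO. The partner adjoining it, 291 kb below, scored 13.7 in UNC6852, 14.3 in UNC1999 and 14.1 in DMSO with that captured fragment. From the captured fragment of 1945 bp at the lower end of SOX17, the partner with the highest mean over the profiles scored 11.1 in UNC6852, 14.2 in UNC1999 and 10.5 in DMSO. The longest pair called in every profile reached 585 kb into RGS20, with 9.99 in UNC6852, 14.6 in UNC1999 and 10.7 in DMSO. Over the 10 pairs called in all 3, scores ran from 6.66 to 18.7 in UNC6852, from 5.32 to 14.6 in UNC1999 and from 5.53 to 20.2 in DMSO. Among the pairs just named, UNC1999 was lowest at 286 kb, UNC6852 at 291 kb and in RGS20, and DMSO from the lower end of the gene.

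Separate captured fragments met the same partners. SOX17 pairs reached 32 partner fragments, of which 13 were met more than once and 7 by 3 captured fragments, 5 of them in the near stretch. With the partner about 285 kb below, scores were 11.1, 4.3 and 18.7 in UNC6852 over the 3 captured fragments from the lower to the upper end of the gene. They were 14.2, 14.6 and 12.6 in UNC1999 and 10.5, 9.3 and 20.2 in DMSO. The upper fragment was thus the highest of the 3 in UNC6852 and DMSO, and the middle one in UNC1999.

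**Figure D4:**
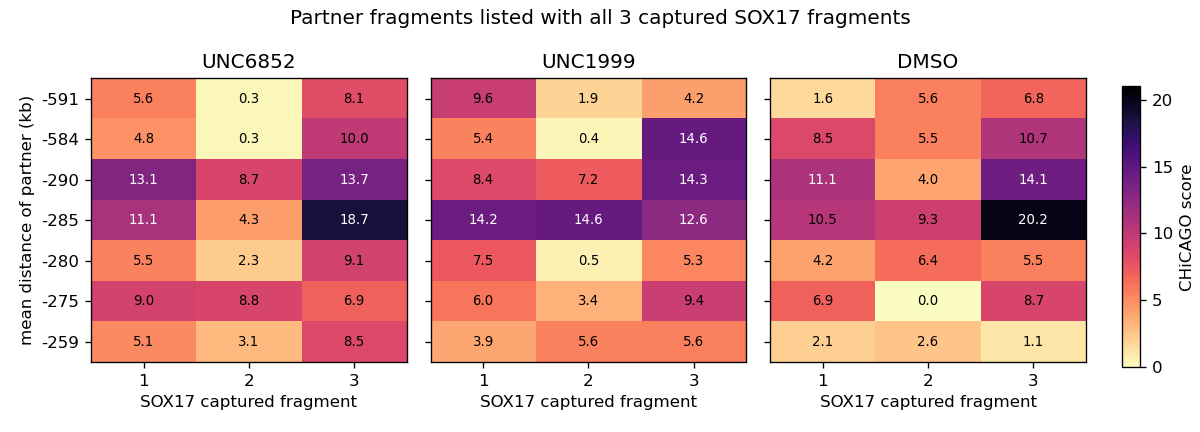
CHiCAGO scores (colour and printed value) of the 7 partner fragments listed with all 3 captured SOX17 fragments, in panels for UNC6852, UNC1999 and DMSO, rows ordered by mean distance in kb and columns from the lower to the upper end of the gene. The row at -285 kb is high in each panel, up to 18.7 in UNC6852, 14.6 in UNC1999 and 20.2 in DMSO, and the middle fragment is the palest column in most rows.

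Captured fragments in RGS20 and in the near stretch also listed SOX17 from the opposite side, in 7 pairs. The one at chr8:53882448-53883219, in RGS20, scored 6.66 in UNC6852, 6.62 in UNC1999 and 5.76 in DMSO with the fragment that covers the upper end of SOX17. Also in RGS20, the captured fragment at chr8:53884609-53884888 scored 2.26 in UNC6852, 5.06 in UNC1999 and 2.12 in DMSO with that SOX17 fragment. The one adjoining it, chr8:53884889-53885389, scored 3.82 in UNC6852, 5.37 in UNC1999 and 8.58 in DMSO. Captured fragments on both sides thus gave calls between SOX17 and RGS20, although no pair of fragments was listed in both directions.

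Single SOX17 pairs stood far apart between profiles. The pair with the lowest difference from DMSO for both compounds, 222 kb below, scored 0.40 in UNC6852, 0.46 in UNC1999 and 6.94 in DMSO. The highest UNC6852 difference, 275 kb below, had 8.75 in UNC6852, 3.39 in UNC1999 and 0 in DMSO. The highest UNC1999 difference, 707 kb below in ATP6V1H, had 0.16 in UNC6852, 5.46 in UNC1999 and 0 in DMSO. All of these came from the middle captured fragment of 1089 bp. From the lower fragment the same partner at 275 kb scored 8.95 in UNC6852, 6.04 in UNC1999 and 6.92 in DMSO. From the upper fragment that partner scored 6.91 in UNC6852, 9.36 in UNC1999 and 8.72 in DMSO. The upper fragment met the same partner at 222 kb with 2.02 in UNC6852, 4.33 in UNC1999 and 5.77 in DMSO. Partners at gene ends were those of ATP6V1H, with 3.13 in UNC6852, 5.39 in UNC1999 and 0.47 in DMSO, and RGS20, with 7.58 in UNC6852, 1.29 in UNC1999 and 0.32 in DMSO.

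SOX7 and SOX18 act beside SOX17 in endothelium, and both had few pairs. SOX7 (chr8:10723768-10730511) had a single pair, 742 kb to a captured fragment in FAM167A, with 1.71 in UNC6852, 5.48 in UNC1999 and 2.42 in DMSO. Within 5000 bp of its ends SOX7 had 9 pairs, with 4 called in UNC6852, 2 in UNC1999 and 4 in DMSO. SOX18 (chr20:64047582-64049639) had 4 pairs from 1 captured fragment, with 3 called in UNC6852, none in UNC1999 and 1 in DMSO. The pair in ZGPAT, 334 kb below, scored 6.05 in UNC6852, 0 in UNC1999 and 0.63 in DMSO, and that in ZBTB46, 290 kb below, scored 5.93 in UNC6852, 2.94 in UNC1999 and 0.11 in DMSO. The pair in PMEPA1, 6371 kb below, scored 5.87 in UNC6852 and 0 in both UNC1999 and DMSO, and that in GMEB2 scored 0 in UNC6852, 0 in UNC1999 and 5.12 in DMSO. Of the 4 SOX18 pairs, 3 were thus at their highest in UNC6852, the only profile in which those 3 were called. That is 75% (exact 95% interval 19.4 to 99.4), and the interval holds the 46.1% of all cis pairs called in UNC6852. Each of the 4 was called in 1 profile.

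Of the 36 SOX pairs called in DMSO, 12 were also called in UNC6852, or 33.3% (exact 95% interval 18.6 to 51.0), against 31.4% of all cis pairs called in DMSO. In UNC1999 16 of the 36 were also called, or 44.4% (27.9 to 61.9), against 29.3% of all cis pairs called in DMSO. Of the calls of UNC6852, 17 of 45 were also called in UNC1999, against 29.1% over all cis pairs. Of those of UNC1999, 17 of 49 were also called in UNC6852, against 31.7%. SOX17 supplied nearly all shared calls: of its 26 DMSO calls 11 recurred in UNC6852 and 16 in UNC1999. Without SOX17, 1 of the 10 DMSO calls of the other genes was also called in UNC6852 (exact 95% interval 0.25 to 44.5%). None was called in UNC1999 (0 to 30.8%). Both intervals hold the value of all cis pairs.

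Scores were higher than in DMSO in 54 of the 95 pairs in UNC6852 (50.8% of all cis pairs) and in 54 in UNC1999 (47.9% of all cis pairs). By mean score, 5 SOX genes had at least 3 pairs, the number set for a gene to be given a difference. UNC6852 minus DMSO was 1.10 for SOX18, 0.37 for SOX14, 0.22 for SOX17, -0.45 for SOX8 and -0.64 for SOX21. UNC1999 minus DMSO was 0.62 for SOX8, 0.40 for SOX14, 0.13 for SOX17, -0.09 for SOX21 and -0.31 for SOX18. In each comparison 3 were higher and 2 lower than in DMSO, but with gene bodies in place of ends SOX21 (0.45) and SOX8 (0.25) were higher too in UNC6852, which gave 5 higher and 0 lower. With gene bodies 4 were higher and 1 lower in UNC1999, where SOX21 was at 0.029. By gene ends 56.4% of 4979 genes were higher in UNC6852 and 49.1% in UNC1999. The median of the 5 was 0.22 for UNC6852, the value of SOX17, beside 0.069 over all genes (quartiles -0.24 and 0.37). For UNC1999 it was 0.13, again the value of SOX17, beside -0.0076 over all genes (-0.32 and 0.31). SOX17 lay inside the quartiles of all genes for both compounds, while SOX18 and SOX8, with 4 and 5 pairs, had the highest values. Each pair of SOX18 and SOX8 was called in 1 profile and entered the list through that call alone. For SOX18 3 of the 4 calls were in UNC6852, and for SOX8 3 of the 5 were in UNC1999. The high values of SOX18 and SOX8 therefore cannot be read apart from how the list was made.

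**Figure D5:**
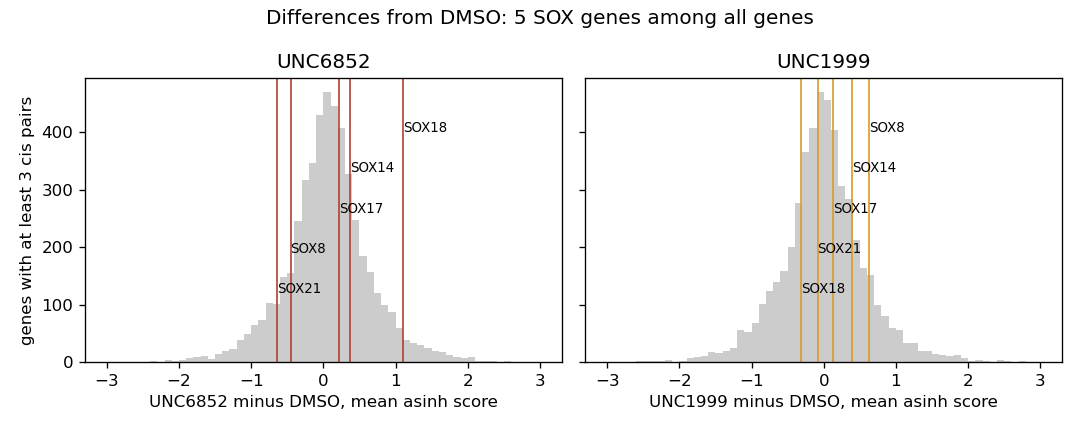
Histogram over 4979 genes with at least 3 cis pairs of the difference in mean asinh score, UNC6852 minus DMSO and UNC1999 minus DMSO, with vertical lines at the 5 SOX genes. SOX17 lies at 0.22 and 0.13, near the middle of each histogram, and SOX18 at 1.10 and -0.31.

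By distance, the SOX pairs had a median of 298 kb, beside 314 kb over all cis pairs. The shortest pair spanned 172 kb, and none of the 95 was under 100 kb, while 0.772% of all cis pairs were under 20 kb and 7.52% lay between 20 and 100 kb. Of the SOX pairs 53 (55.8%) lay between 100 and 500 kb, 36 (37.9%) between 0.5 and 2 Mb and 6 (6.32%) beyond, where all cis pairs gave 64.5%, 19.9% and 7.38%. Of the 36, SOX17 gave 17, all in its far stretch and from neighbouring fragments, and SOX14 gave 13. Of 565 genes with at least 20 pairs, 112 had no pair shorter than the shortest SOX pair either. The median distance was 282 kb for SOX17 and 656 kb for SOX14. Of the partners 13 were captured fragments, 5 touched an end of a protein-coding gene, 6 an end of another gene, and 58 lay in no gene span. Of those 58, SOX17 had 33 and SOX14 21, while every partner of SOX8, SOX7 and SOX18 lay in a gene span.

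Further SOX genes and a list of factors that work with SOX proteins were read in the same way. Beside their counts, 46.1% of all cis pairs were called in UNC6852, 42.3% in UNC1999 and 42.4% in DMSO. Of 9 further SOX genes 5 had pairs, 26 in all, with 17 called in UNC6852, 9 in UNC1999 and 11 in DMSO. SOX30, which acts in sperm formation, supplied 14 of these, with 12 called in UNC6852, 5 in UNC1999 and 7 in DMSO. Of 10 factors that work with SOX proteins, among them the POU factors, 7 had pairs, 81 in all, with 44 called in UNC6852, 47 in UNC1999 and 29 in DMSO. POU3F1, a neural POU factor, had 32 pairs, with 14 called in UNC6852, 21 in UNC1999 and 11 in DMSO. MEF2C, a factor of muscle and neural crest, had 24, with 18 called in UNC6852, 16 in UNC1999 and 12 in DMSO. All 4 such factors with at least 3 pairs had a higher mean in both treated profiles than in DMSO, with medians of 0.46 for UNC6852 and 0.29 for UNC1999. Over all genes with at least 3 pairs, 56.4% were higher in UNC6852 (median 0.069) and 49.1% in UNC1999 (median -0.0076). Of the factors with fewer pairs, NR5A1 was lower in both (-1.49 for UNC6852, -0.31 for UNC1999), and POU5F1 and PAX6 were higher in both. Of the 3 further SOX genes with at least 3 pairs, 2 were higher and 1 lower in UNC6852 (median 0.15), and all 3 were lower in UNC1999 (median -0.24).

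Likeness of pattern was measured as the Euclidean distance over the 3 mean asinh scores, among 1563 genes with at least 10 pairs. Nearest to SOX17 was CHCHD4, at a distance of 0.035, with 2.21 in UNC6852, 2.11 in UNC1999 and 1.99 in DMSO. Nearest to SOX14 was CNGA3, at 0.074, with 1.45 in UNC6852, 1.56 in UNC1999 and 1.12 in DMSO. The 2 patterns differ in level, with SOX17 above SOX14 in each profile.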

How the data were processed

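HNES1 capture Hi-C was represented by 1 pooled column of CHiCAGO scores for each of UNC6852, UNC1999 and DMSO (15 libraries each, in 2 batches holding every group alike). The score columns are as deposited by the authors, with their pooling named in the labels. The build is GRCh38, per the submitters' processing notes. The aligner and the settings of the caller are not given in the sources used here. No listed pair was below 5 in every column. Depth is unknown, so no read-based interval or floor is given.

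Ends of genes came from RefSeq GRCh38.p14, which gives spans here, so exon and intron were not resolved. Scores of at least 5 were calls. Differences are between mean asinh scores, and shares have exact Clopper-Pearson 95% intervals. No test was planned or made. The members and lists were chosen with earlier results of these data known. Named were all 10 genes, with, for each, the 3 pairs of highest mean beyond 20 kb, the longest called in all 3, the extreme differences for each compound and partners at protein-coding gene ends, and the 1 nearest gene by pattern. Pairs within 5000 bp, further SOX14 and SOX21 pairs, pairs of SOX17 at shared partners and from the opposite side, and SOX30, POU3F1 and MEF2C were chosen after their values were seen. The calculation was tested on simulated data. Alternatives were other thresholds, equal numbers of calls, windows, distances, sides, scales, merged other ends, gene bodies and omission of SOX17, the last 2 added after seeing the data. Values came from scipy 1.17.1, pandas 2.3.3 and numpy 2.4.6 under Python 3.11.15, and figures from matplotlib 3.10.9.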

Additional observations from a re-analysis of the deposited data

How the results depend on the processing

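No paired analysis was possible because each profile pools its replicates into 1 column. Of the results over all SOX genes, 47 alternative values stayed close to the value reported, 30 moved and 2 turned sign. Close meant within a set fold for counts and differences, and inside the wide exact 95% interval of the reported value for shares. The 47 include the alternative of pairs of at least 20 kb, which could change nothing since the shortest SOX pair spanned 172 kb. Calls over all SOX genes in UNC6852, UNC1999 and DMSO were 17, 17 and 13 at a threshold of 7 and 4, 8 and 5 at 10. They were 15, 19 and 12 for fragments touching a gene end, 130, 120 and 105 within 5000 bp, 4, 9 and 5 where the gene had to be at the other end, and 16, 19 and 10 without SOX17. The order of UNC1999 above UNC6852 thus did not hold at a threshold of 7 or within 5000 bp, nor did DMSO stay lowest at 10 or with the gene at the other end. At a threshold of 10, 80% of the 5 DMSO calls recurred in UNC6852 and 80% in UNC1999. Without SOX17 the shares of the 10 DMSO calls were 10% (exact 95% interval 0.25 to 44.5) and 0% (0 to 30.8).

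The median difference over SOX genes for UNC6852, 0.22 as reported, was 0.12 for fragments touching an end, 0.37 with gene bodies, 0.031 on quantile-normalized scores, 0.14 for pairs averaging a score of at least 5, and -0.23 where the gene had to be at the other end. For UNC1999, 0.13 as reported, it was 0.23 within 5000 bp, 0.25 with the gene at the bait only, 0.22 as means over baits, 0.20 for pairs averaging at least 5, and -0.072 on quantile-normalized scores. Quantile normalization moved the median of all genes to -0.14 for UNC6852 (quartiles -0.46 and 0.15) and -0.23 for UNC1999 (-0.55 and 0.075). The SOX medians, which are the values of SOX17 alone, lay above these medians but inside the quartiles. Among single genes the sign turned for SOX21 with gene bodies (0.45 for UNC6852, 0.029 for UNC1999) and for pairs with a mean of at least 5 (1.13 for UNC1999), and for SOX8 with gene bodies (0.25 for UNC6852). It also turned for UNC1999 within 5000 bp in SOX7 (-0.46), SOX17 (-0.013) and SOX18 (0.10), and in SOX17 on quantile-normalized scores (-0.072). The cause was not tested. Differences of SOX14 stayed positive under the alternatives run, but ranged from 0.14 to 0.64 for UNC6852 and from 0.10 to 0.77 for UNC1999.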

Other observations

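Captured fragments at SOX genes were also listed with other chromosomes. Of all 281836 such pairs, 34.3% were called in UNC6852, 36.1% in UNC1999 and 29.98% in DMSO. SOX14 had 56 such pairs, against 28 in cis, with 23 called in UNC6852, 19 in UNC1999 and 14 in DMSO. SOX17 had 31, with 13 called in UNC6852, 8 in UNC1999 and 10 in DMSO. SOX18 had 9, with 2 called in UNC6852, 4 in UNC1999 and 3 in DMSO. The SOX1 fragments, which had no cis pair, had 7, with 4 called in UNC6852, 2 in UNC1999 and 1 in DMSO.

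Within 5000 bp of its ends SOX17 had 116 pairs, with 66 called in UNC6852, 53 in UNC1999 and 50 in DMSO, and 14 in all 3. Of these 78 met the near stretch, here 322 to 161 kb below the gene, and 34 the far stretch. SOX14 had 68 such pairs, with 25 called in UNC6852, 30 in UNC1999 and 18 in DMSO. Again none was called in all 3, beside 8.33% of all cis pairs.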
